A study of Homo sapiens with 24 samples.

Results

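The genes described here are 40 classical immediate early genes, chosen by name as genes whose mRNA is known to be superinduced when protein synthesis is blocked with cycloheximide (CHX). They were followed among 62754 genes in the human colon carcinoma line RKO, in which the guide, the drug and the cell fraction were varied. All cells carried a doxycycline-inducible Cas9 and a constitutively expressed guide RNA, either sgERH, which targets the gene of the small nuclear protein ERH, or the control sgAAVS1, which targets the AAVS1 safe-harbour locus. Every culture received doxycycline at 100 ng/mL for 5 days, the controls included, so Cas9 was active in all 8 groups. The cells had been sorted in bulk by FACS for the guide's fluorescent marker before doxycycline, and no edited clones were picked. A group can therefore hold cells with different edits and cells without a knockout. Cells of each guide were then given CHX at 25 µg/mL or the solvent DMSO for 4 hours, and polyadenylated RNA was sequenced from the cytoplasmic and from the nuclear fraction. The 8 groups of guide, treatment and fraction had 3 libraries each. These are labelled biological replicates with no further detail, so p-values measure the spread between these libraries.

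Immediate early genes are those that growth factors, stress and other stimuli switch on through kinases and transcription factors already present in the cell, so that their transcription needs no new protein. They encode transcription factors such as the AP-1 subunits and the EGR, KLF and NR4A families, together with feedback inhibitors such as the dual-specificity phosphatases and Sprouty proteins. Their transcripts are usually short-lived, in many cases through AU-rich elements in the 3′ untranslated region (UTR), and CHX is the classical agent with which their mRNAs are made to accumulate above the level that the stimulus alone gives.

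Of the 40 members, 39 had enough counts to be tested. EGR4, a zinc finger factor of the EGR family, had 0 counts in every library, which, in counts per 1000000 counts of the library (CPM), allows a level of up to 0.0378 to 0.108 depending on the library, taking 3 counts as the limit and covering counting error only. A gene is called where the adjusted p of edgeR's quasi-likelihood test was at most 0.05 and the fold change at least 2-fold, that is 1 on the log2 scale. With the control guide, 23 of the 40 members were called higher in the cytoplasm after CHX, against 13.6% of the 16130 genes tested there. No group received a stimulus besides CHX or DMSO, so a rise above the level that a stimulus alone gives was not measured. Of the 39 tested, 12 were called higher with CHX in all 4 combinations of guide and fraction (FOS, FOSB, JUNB, EGR2, EGR3, KLF2, KLF6, KLF10, NR4A1, NR4A3, BTG1 and CCN2), against 2.90% of the 15360 genes tested in both fractions. Another 10 were called in none of the 4 combinations, and 4 were called lower in at least 1. For these last counts the shares of all genes were not computed, so whether they are unusual is not known.

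The libraries held 43.98 to 79.45 M counts in the cytoplasm and 27.85 to 41.8 M in the nucleus. MALAT1, a nuclear RNA, took 0.357% to 0.654% of nuclear counts and 0.0176% to 0.0358% of cytoplasmic counts, and mitochondrial mRNA took 3.08% to 4.12% of cytoplasmic counts with sgAAVS1 and 4.69% to 6.84% with sgERH. In the nuclei it took 0.395% to 0.598% and 0.745% to 1.05%, and exon-intron boundary reads per 100 spliced reads were 38 to 40.65 with sgAAVS1, against 32.3 to 32.4 with sgERH and DMSO and 24.5 to 27.1 with sgERH and CHX. The mitochondrial shares of a fraction and the nuclear boundary reads did not overlap between guides, and their part in the guide contrasts was not tested. ERH itself read 137, 158 and 152 CPM in the 3 sgAAVS1 DMSO cytoplasmic libraries against 72.9, 86.9 and 59.4 with sgERH, a called difference of −1.03 ± 0.11 (SE) on the log2 scale. With CHX it read 118, 122 and 107 CPM in the cytoplasm with sgAAVS1 and 68.4, 81.0 and 61.6 with sgERH, a log2 difference of −0.72 that was not called. In the nucleus the ERH differences were −0.48 with DMSO and −0.12 with CHX, neither was called, and with CHX the libraries of the guides overlapped (15.6, 14.2 and 14.1 CPM against 11.9, 16.8 and 11.8). GADD45A, a target of nonsense-mediated decay that accumulates when translation stops, went from 74.6, 73.7 and 62.9 to 850, 844 and 830 CPM with CHX in the sgAAVS1 cytoplasm, a log2 change of 3.58. Of the epithelial markers, KRT8, KRT18, EPCAM and CDX2 were expressed, whereas CDH1, KRT20, CDX1, KRT19 and VIL1 were at or near 0 in transcripts per 1000000 (TPM), as were the fibroblast and endothelial markers in the cytoplasm. Among leukocyte markers, PTPRC and CD3E were at or near 0, CD68, a lysosomal protein, averaged 275 TPM in the sgAAVS1 DMSO cytoplasm, and ITGAM averaged 0.114 TPM in the sgAAVS1 DMSO nuclei and 23.97 TPM with CHX. The part of these markers in the results was not tested.

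Because members are known for AU-rich 3′ UTRs, the sites that hold the nonamer TTATTTATT are shown first, read from the GENCODE annotation on GRCh38 with the nonamer in capitals and 10 bases on either side. The nonamer, searched on the sense strand, was in the 3′ UTR of 11 of the 39 tested members (28.2%) and of 9.25% of the other 12403 genes with such an annotation. The shorter pentamer ATTTA, which the nonamer also contains, was in 94.9% and 71.9%. The sites shown are those of a member with a large rise with CHX (FOS), of the decay factors that themselves bind such sites (ZFP36, ZFP36L1 and ZFP36L2), and of members not called in any CHX comparison (DUSP1 and SRF, with log2 changes of 0.66 and −0.70 in the sgAAVS1 cytoplasm).
FOS chr14:75282060-75282088 (+): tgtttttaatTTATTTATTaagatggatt
ZFP36 chr19:39409196-39409224 (+): tatgacgactTTATTTATTctaatatgat
ZFP36L1 chr14:68788077-68788105 (-): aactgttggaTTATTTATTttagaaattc
ZFP36L2 chr2:43223448-43223476 (-): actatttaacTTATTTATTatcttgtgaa
DUSP1 chr5:172768643-172768671 (-): gggctggtccTTATTTATTtaacttcacc
DUSP1 chr5:172768375-172768403 (-): agaatataccTTATTTATTtttgtgtagg
SRF chr6:43179224-43179252 (+): atggcaccacTTATTTATTgttgcctttt

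Among members called and not called the nonamer was spread as follows: 4 of the 23 members called higher in the sgAAVS1 cytoplasm held it, and 7 of the 16 tested members not called higher did. A match is a description of letters and not a tested site. Members were also short genes, with a median of 3 exons and 6330 bases against 9 exons and 33317 bases in the other genes tested.

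Serum and mitogens reach these genes in large part through the CArG box, which binds serum response factor (SRF), and the cyclic AMP response element TGACGTCA. RefSeq promoter windows of 300 bases (GRCh38.p14), 250 before the start and 50 after it, were matched for 29 members and searched on both strands. Sites outside a window, and members without one, were not searched. The CArG box was in 2 of the 29 (6.90%, EGR1 and SRF itself) against 1.29% of all 35116 windows. The response element was in 3 (10.3%, JUND, DUSP1 and DUSP8) against 1.85%, and the AP-1 site, TGACTCA or its reverse complement TGAGTCA, in 1 (3.45%, FOSL2) against 4.95%. The 150 bases before the start are shown for EGR1, SRF and DUSP8. Among the members with a window, EGR1 was the only one called higher in the sgAAVS1 cytoplasm with CArG boxes in it. SRF holds the same motif and was not called, and DUSP8 holds a pair of the response elements. Capitals mark the motifs.
EGR1 chr5:138465329-138465478 (+): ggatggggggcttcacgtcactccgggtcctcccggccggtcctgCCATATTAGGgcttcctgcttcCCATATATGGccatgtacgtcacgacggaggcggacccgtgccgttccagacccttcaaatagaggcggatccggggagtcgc
SRF chr6:43171119-43171268 (+): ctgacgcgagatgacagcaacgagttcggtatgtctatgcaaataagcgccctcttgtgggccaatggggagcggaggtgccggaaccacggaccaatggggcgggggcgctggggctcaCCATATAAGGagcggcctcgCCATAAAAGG
DUSP8 chr11:1572272-1572421 (-): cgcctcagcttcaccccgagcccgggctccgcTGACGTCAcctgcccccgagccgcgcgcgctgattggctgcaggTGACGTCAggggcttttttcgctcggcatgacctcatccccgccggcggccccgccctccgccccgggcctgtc

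Before CHX the members spanned more than 3 orders of magnitude in level. Per transcript length, as TPM in the sgAAVS1 DMSO cytoplasm, MCL1, an anti-apoptotic BCL2 family protein, stood first at 534 ± 32.6 (SD, n = 3), ahead of JUN at 404 ± 21.3, FOSL1 at 357 ± 17.6 and MYC at 300.1 ± 2.14. At the other end were NR4A2 at 0.591 ± 0.167, EGR2 at 0.575 ± 0.107 and NR4A3 at 0.275 ± 0.0580. NR4A2 and EGR2 did not differ beyond their spread, whereas each neighbour among the first 4 differed by more than the SD of either gene. With CHX the order changed. JUN stood first at 1480 ± 57.2 TPM, KLF10 rose from 61.2 to 1133 ± 9.69 TPM, and FOSL1, MCL1 and PHLDA1 followed at 697, 633 and 623 TPM.

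Summed over the members, the level in the sgAAVS1 cytoplasm went from 3036 to 3183 TPM in the DMSO libraries to 7906 to 8192 TPM with CHX. JUN and KLF10 each supplied over 1000 TPM of the gain, 21.6% and 21.5% of the summed gains, and with PHLDA1 they made up 51.4%. In the sgERH cytoplasm the same 3 genes gave 49.7% of the summed gains. These TPM lack the scaling between libraries that the CPM and the tests use, so gains on the 2 scales can differ. MYC, for example, went from 300 to 308 TPM in the sgAAVS1 cytoplasm, while its log2 change in the test was −0.19. As a share of all counts the members took 0.716% to 0.749% in the sgAAVS1 cytoplasm with DMSO and 1.73% to 1.78% with CHX, and in the nucleus 0.482% to 0.50% and 0.657% to 0.687%. No spike-in enters these values, so all levels are relative to the other RNA of a library, and fewer cells expressing a gene and less of its RNA per cell cannot be told apart.

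With the control guide, CHX raised 23 of the 39 tested members in the cytoplasm and lowered 1, where 13.6% and 6.31% of the 16130 genes tested were called higher and lower (19.9% in either direction). The median log2 change of the members was 1.24, against −0.02 over all genes tested, and 29 of 39 were above 0. The transcription factors of the AP-1, EGR, KLF and NR4A families gave 14 of the 23 calls. Of the 8 phosphatases and Sprouty proteins 3 were called higher, and of the 3 IER proteins 1, against 13.6% of all genes. In the sgERH cytoplasm 17 were called higher and 1 lower (9.03% of genes in either direction, 7.15% higher and 1.88% lower), with a median of 0.87 against −0.01.

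**Figure D1:**
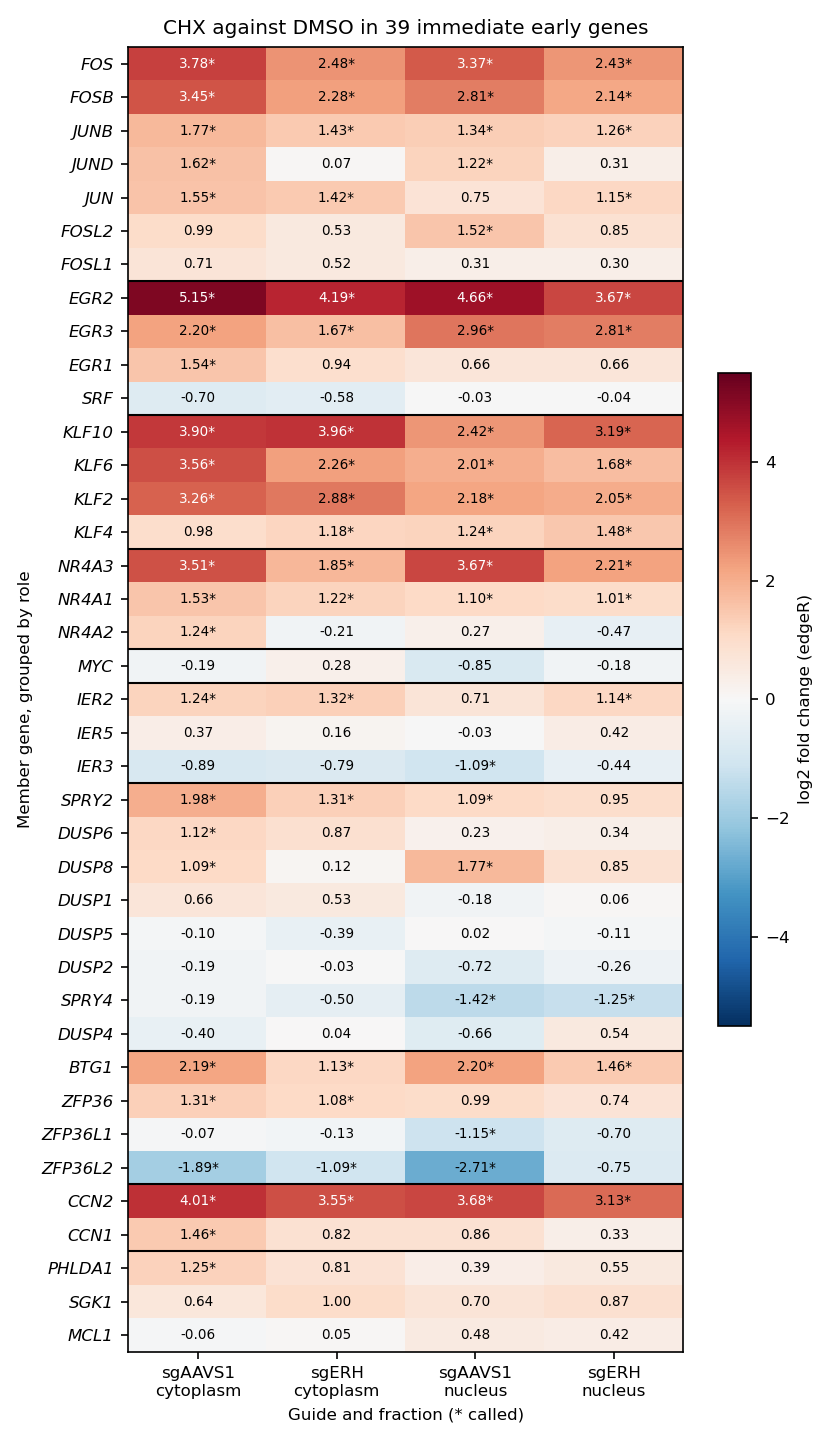
Log2 fold change of CHX against DMSO for the 39 tested members (rows, grouped by role and ordered by the first column) in each guide and fraction (columns), from edgeR; the number is the log2 fold change and an asterisk marks a called gene. The column of the sgAAVS1 cytoplasm runs from 5.15 for EGR2 to −1.89 for ZFP36L2, and the 10 members with no asterisk in any column include MYC, MCL1, DUSP1 and SRF.

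The AP-1 subunits are the FOS and JUN proteins that pair to bind the AP-1 site, and 5 of the 7 were called higher in the sgAAVS1 cytoplasm. FOS read 11.7, 12.9 and 12.1 CPM with DMSO and 168, 166 and 170 CPM with CHX, so that the lowest CHX library was more than 10 times the highest DMSO library. Its log2 change was 3.78 ± 0.08 (SE; edgeR adjusted p = 2.5e-15). FOSB went from 34.5, 35.3 and 31.4 to 361, 379 and 364 CPM, with a log2 change of 3.45.

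JUN, the main partner of FOS, rose less in fold, from 1114, 1041 and 961 to 2961, 3199 and 2985 CPM, a log2 change of 1.55 ± 0.06. JUNB and JUND, its paralogs, rose by log2 changes of 1.77 and 1.62. FOSL1 and FOSL2, which encode the FRA proteins and usually follow FOS in time, gave log2 changes of 0.71 and 0.99 and were not called. In the nucleus FOS read 10.7, 6.21 and 8.51 CPM with DMSO and 83.7, 86.1 and 93.3 CPM with CHX, a log2 change of 3.37 ± 0.14, and again the groups did not overlap. There FOSL2 was called (1.52) and JUN was not (0.75). The nuclear call of JUND, at a log2 change of 1.22, fell to 0.99 without replicate 2 of the sgAAVS1 CHX nuclei.

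EGR2, a zinc finger factor of the EGR family, had the largest log2 change of all members in all 4 CHX comparisons. In the sgAAVS1 cytoplasm it read 1.37, 1.80 and 1.29 CPM with DMSO and 53.2, 53.0 and 53.2 CPM with CHX, a 35.4-fold rise and a log2 change of 5.15 ± 0.11 (edgeR adjusted p = 1.9e-15). In the nucleus it went from 1.06, 0.478 and 0.761 to 19.5, 16.8 and 22.3 CPM, a log2 change of 4.66 ± 0.22. The CHX libraries agreed closely in the cytoplasm and lay far above every DMSO library in both fractions.

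EGR1, the archetype of the family, rose from 338, 348 and 331 to 972, 1011 and 969 CPM in the sgAAVS1 cytoplasm, a log2 change of 1.54 ± 0.05. In the nucleus it read 146, 152 and 135 CPM with DMSO and 221, 234 and 227 CPM with CHX, groups that did not overlap although the log2 change of 0.66 was not called. EGR3 rose more in the nucleus, with a log2 change of 2.96, than in the cytoplasm, with 2.20, and this difference of 0.80 was not called. SRF, the factor that binds the CArG box, read 141, 130 and 130 CPM in the cytoplasm with DMSO and 81.9, 84.9 and 80.2 CPM with CHX, a log2 change of −0.70 that was not called.

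Of the Krüppel-like factors, 3 of 4 were called higher in the sgAAVS1 cytoplasm and all 4 in each of the other 3 CHX comparisons. KLF10, a TGF-β-inducible repressor, read 159, 159 and 151 CPM with DMSO and 2350, 2342 and 2339 CPM with CHX in the sgAAVS1 cytoplasm, a log2 change of 3.90 ± 0.05 (edgeR adjusted p = 8.7e-18). KLF6 went from 46.9, 45.8 and 41.7 to 535, 527 and 526 CPM, a log2 change of 3.56 ± 0.06. For both genes the 3 libraries of each group were close together and the groups far apart. KLF2, an endothelial and lymphocyte factor, rose by 3.26 from a low level of 2.67 to 3.81 CPM. KLF4, a factor of differentiated epithelium and of reprogramming, missed the fold threshold in the sgAAVS1 cytoplasm at 0.98 and was called in the nucleus at 1.24.

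The NR4A genes encode orphan nuclear receptors that are regulated mainly by their own level. NR4A3 rose from 1.15, 1.51 and 1.53 to 16.8, 15 and 15.9 CPM in the sgAAVS1 cytoplasm (log2 change 3.51 ± 0.13) and from 0.839, 0.921 and 0.830 to 9.35, 12.5 and 11.3 CPM in the nucleus (3.67 ± 0.23). In either fraction every CHX library was above every DMSO library. NR4A1 rose by 1.53 in the cytoplasm and by 1.10 in the nucleus, where the call was lost at 0.85 when transcript length entered the fit as an offset. NR4A2 was called in the sgAAVS1 cytoplasm at 1.24 and not in the nucleus at 0.27.

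**Figure D2:**
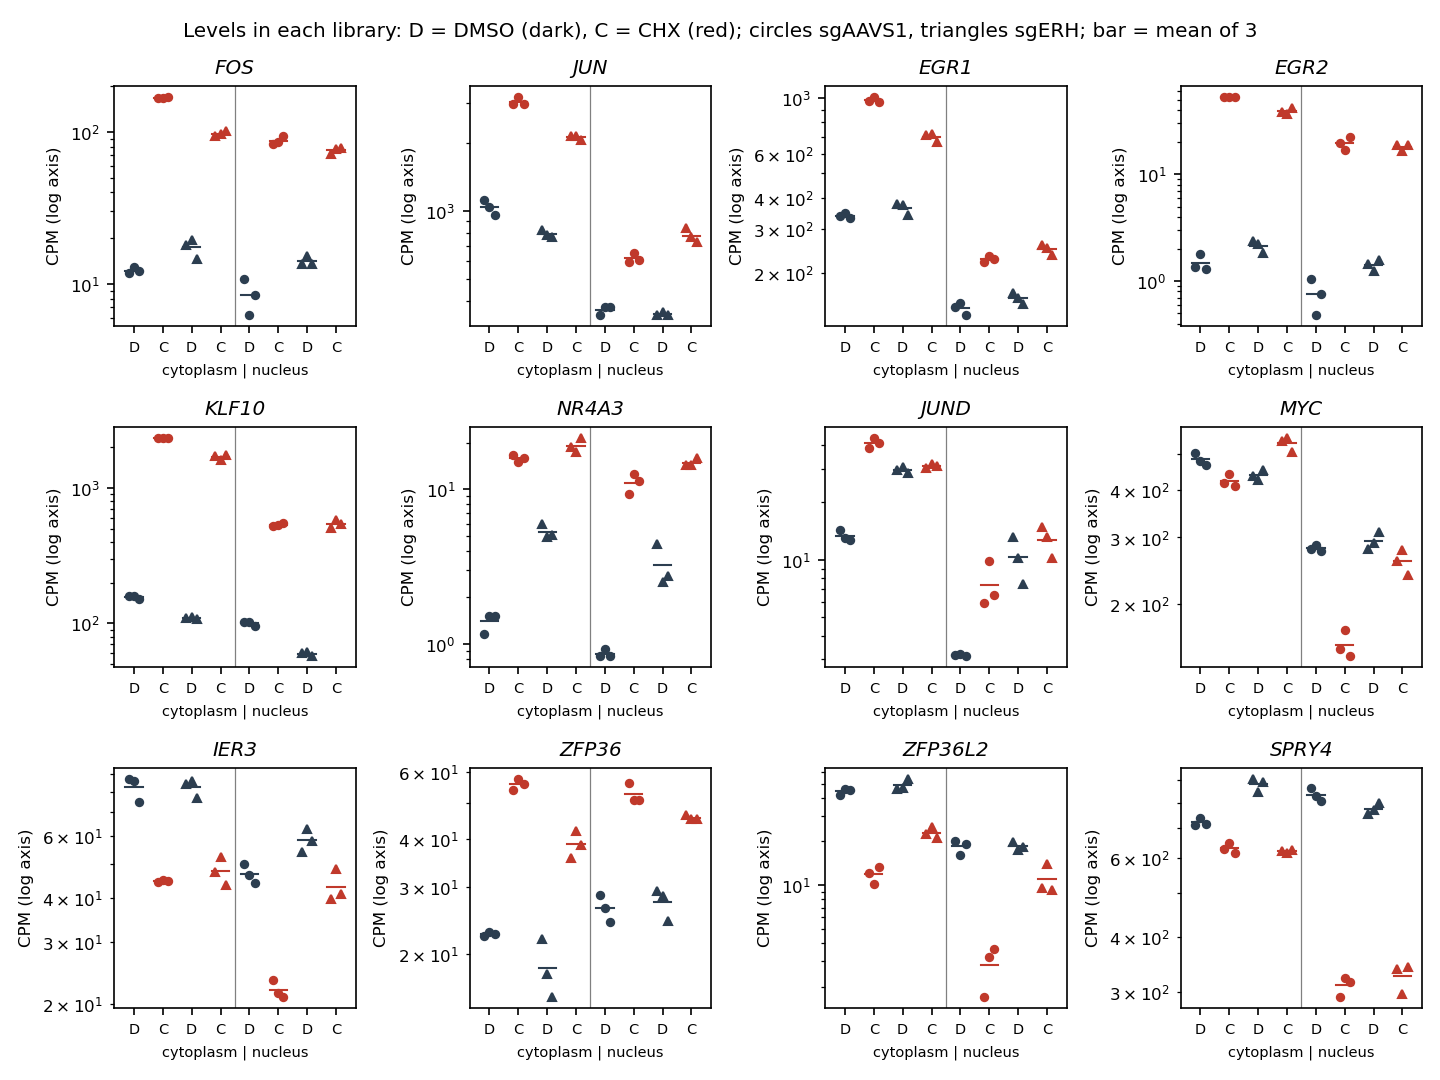
CPM (log axes) of 12 members in each of the 24 libraries: circles are sgAAVS1, triangles sgERH, dark symbols DMSO (D) and red symbols CHX (C), with the cytoplasm left and the nucleus right of the grey line and a bar at the mean of 3 libraries. FOS, EGR2 and KLF10 rose in each guide and fraction, JUND differed between guides before CHX, SPRY4 fell in the nuclei with either guide, and ZFP36L2 fell in the sgAAVS1 nuclei.

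MYC, the growth-promoting transcription factor whose mRNA is a textbook example of a short-lived transcript, was called in none of the CHX comparisons. It read 504, 480 and 467 CPM in the sgAAVS1 cytoplasm with DMSO and 420, 441 and 411 CPM with CHX, a log2 change of −0.19. In the nucleus it read 280, 286 and 275 CPM and 151, 171 and 145 CPM, a log2 change of −0.85 ± 0.08. The groups did not overlap in either fraction, and the size stayed under the 2-fold threshold.

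The transcripts of the IER proteins, products of immediate early genes, moved apart. IER2 was called higher in the sgAAVS1 cytoplasm, with a log2 change of 1.24. IER3, an apoptosis regulator of the NF-κB and ERK pathways, read 87.0, 85.8 and 74.7 CPM in that fraction with DMSO and 44.3, 44.9 and 44.6 CPM with CHX, a log2 change of −0.89 that was not called. In the nucleus it fell from 50.1, 46.3 and 44.1 to 23.4, 21.5 and 20.9 CPM, a called log2 change of −1.09 ± 0.10, with no overlap of the groups in either fraction. IER5 gave 0.37 and −0.03 in the cytoplasm and nucleus.

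The dual-specificity phosphatases remove phosphate from MAP kinases, and the Sprouty proteins restrain receptor tyrosine kinase signalling, so both are feedback inhibitors. Of these 8 members, 3 were called higher in the sgAAVS1 cytoplasm, namely SPRY2 at a log2 change of 1.98, DUSP6 at 1.12 and DUSP8 at 1.09, and the call of DUSP6 was lost at 0.99 with the length offset. DUSP1, the phosphatase most often cited as an immediate early gene, read 25.9, 24.1 and 23.1 CPM with DMSO and 38.7, 39.6 and 37.6 CPM with CHX, a log2 change of 0.66 that was not called. In the nucleus DUSP1 read 16.2, 16.3 and 17.3 CPM and 14.4, 15.3 and 14.1 CPM, a log2 change of −0.18.

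SPRY4 was called lower in the nucleus and not in the cytoplasm. It went from 863, 828 and 808 to 292, 323 and 316 CPM in the nucleus, a log2 change of −1.42 ± 0.07. In the cytoplasm it read 713, 739 and 716 CPM with DMSO and 629, 650 and 616 CPM with CHX, a log2 change of −0.19. DUSP2, DUSP4 and DUSP5 gave cytoplasmic log2 changes between −0.40 and −0.10 and were not called in any CHX comparison. DUSP8 had a larger log2 change in the nucleus, 1.77, than in the cytoplasm, and the difference of 0.72 was not called.

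The 3 TIS11 proteins ZFP36, ZFP36L1 and ZFP36L2 bind AU-rich elements and recruit the deadenylase that starts mRNA decay, and their own transcripts moved in different directions. ZFP36 rose from 22.3, 22.8 and 22.5 to 53.8, 57.7 and 56.0 CPM in the sgAAVS1 cytoplasm, a log2 change of 1.31 ± 0.10. ZFP36L1 read 644, 647 and 627 CPM and 608, 610 and 603 CPM, a log2 change of −0.07. ZFP36L2 was the only member called lower there, from 41.5, 46.2 and 44.9 to 12.2, 10.3 and 13.3 CPM, a log2 change of −1.89 ± 0.10 (edgeR adjusted p = 3.3e-11).

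In the nucleus ZFP36L2 fell further, from 20.2, 16.3 and 19.2 to 1.69, 3.23 and 3.62 CPM, a log2 change of −2.71 ± 0.22, and no CHX library came near a DMSO library. ZFP36L1 was called lower in the nucleus as well, at −1.15, and ZFP36 gave 0.99. Exons of ZFP36L1 and ZFP36L2 overlap other annotated genes, and whether the counting used strand is not given in the sources used here. BTG1, an antiproliferative protein that also binds the deadenylase complex, rose in both fractions, by 2.19 in the cytoplasm and by 2.20 in the nucleus.

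CCN2 and CCN1 encode secreted matricellular proteins that serum and the YAP pathway induce. CCN2 went from 11.3, 12.7 and 9.67 to 183, 181 and 181 CPM in the sgAAVS1 cytoplasm, a log2 change of 4.01 ± 0.09 (edgeR adjusted p = 2.3e-15), and from 11.1, 10.5 and 7.75 to 118, 118 and 140 CPM in the nucleus (3.68 ± 0.15). CCN1 rose less, by a log2 change of 1.46 in the cytoplasm and 0.86 in the nucleus, where it was not called. PHLDA1, a pleckstrin-homology protein induced by growth factors, was called higher in the cytoplasm at 1.25 and not in the nucleus at 0.39.

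MCL1, whose protein is among the shortest-lived in the cell, read 1846, 2014 and 1830 CPM in the sgAAVS1 cytoplasm with DMSO and 1841, 1774 and 1827 CPM with CHX, groups that overlapped. In the nucleus it read 1713, 1643 and 1681 CPM and 2342, 2274 and 2403 CPM, a log2 change of 0.48 with no overlap and no call. SGK1, a serum- and glucocorticoid-inducible kinase, gave 0.64 and 0.70 and was not called.

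In the nucleus with the control guide, CHX raised 17 members and lowered 4, where 14.4% of the 17330 genes tested were called higher and 10.8% lower (25.2% in either direction), with a median log2 change of 0.75 against 0.01 over all genes. Of the 23 members called in the cytoplasm, 15 were called higher in the nucleus too, and 8 (JUN, EGR1, NR4A2, IER2, DUSP6, ZFP36, CCN1 and PHLDA1) were not. FOSL2 and KLF4 were called in the nucleus only. With sgERH, 15 were called higher in the nucleus and 1, SPRY4, lower (14.8% of genes in either direction, 8.52% higher and 6.29% lower), with a median of 0.74 against 0.01.

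Whether ERH depletion altered the CHX response was tested as the difference of the CHX effects between guides, which uses all 12 libraries of a fraction. In the cytoplasm 7 members had a lower CHX effect with sgERH and none a higher one, where 3.63% of genes were called in either direction, 1.02% higher and 2.61% lower, and the median difference was −0.31 against 0.03 over all genes. The 7 were NR4A3, JUND, NR4A2, KLF6, FOS, FOSB and BTG1, so that AP-1 and NR4A genes gave 5 of them. In the same libraries GADD45A, which is no member, also had a smaller CHX effect with sgERH, by −1.49 on the log2 scale.

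The values of each library show at which end of the contrast the guides stood apart. FOS read 18.1, 19.6 and 14.6 CPM with DMSO and 93.9, 96.3 and 102 CPM with CHX in the sgERH cytoplasm, a start above and an end below the 168, 166 and 170 CPM of sgAAVS1. Its log2 change was 2.48, and the difference from sgAAVS1 was −1.30 ± 0.11 (edgeR adjusted p = 5.2e-07). FOSB went from 63.7, 61.6 and 53.8 to 283, 269 and 315 CPM, with a difference of −1.17.

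For the other 6 members, FOSB included, the fitted levels stood further apart with DMSO than with CHX. For FOSB the log2 difference of sgERH from sgAAVS1 was 0.82 with DMSO and −0.35 with CHX, neither called, and for NR4A2 it was 2.09 (called) and 0.64 (not called). KLF6 read 104, 110 and 106 CPM with DMSO and 513, 496 and 524 CPM with CHX in the sgERH cytoplasm, against 535, 527 and 526 CPM with sgAAVS1 and CHX. The difference of its CHX effects was −1.30 ± 0.07. NR4A3 went from 5.98, 4.89 and 5.07 to 18.7, 17.4 and 21.5 CPM, ending above the sgAAVS1 libraries, and its difference of −1.66 ± 0.17 was the largest in size of any member in the cytoplasm.

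JUND read 29.7, 30.8 and 28.6 CPM with DMSO and 30.3, 31.9 and 31.0 CPM with CHX in the sgERH cytoplasm, groups that overlapped, whereas with sgAAVS1 it went from 14.3, 13 and 12.8 to 38.8, 43.6 and 41.0 CPM. The difference was −1.56 ± 0.09. BTG1 went from 42.8, 46.2 and 43.0 to 94.7, 96.0 and 97.8 CPM with sgERH and from 22.8, 25.5 and 21.3 to 110, 102 and 105 CPM with sgAAVS1, a difference of −1.06. NR4A2 read 7.66, 5.57 and 7.27 CPM with DMSO and 5.67, 5.07 and 7.06 CPM with CHX with sgERH, again overlapping, against 1.35, 2.04 and 1.40 and then 4.07, 3.92 and 3.40 CPM with sgAAVS1, a difference of −1.45 ± 0.25.

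**Figure D3:**
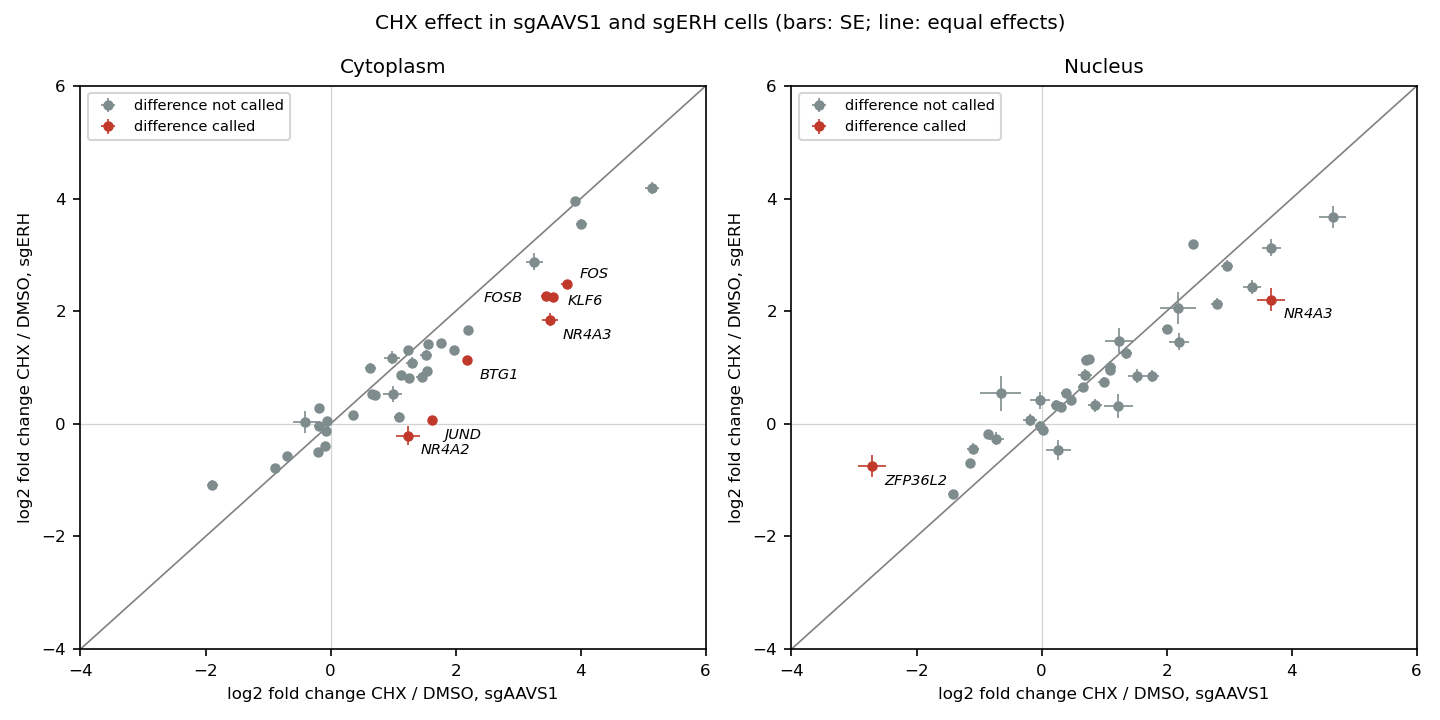
Log2 fold change of CHX against DMSO with sgAAVS1 (x axis) and sgERH (y axis) for the 39 tested members in the cytoplasm (left) and the nucleus (right), with SE bars; the line marks equal effects and red marks members whose difference between guides was called. In the cytoplasm the 7 called members lie below the line, and in the nucleus NR4A3 lies below it and ZFP36L2 above it.

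In the nucleus 2 members differed between guides (3.62% of genes in either direction, 1.29% higher and 2.33% lower). NR4A3 had a smaller rise with sgERH, from 4.43, 2.52 and 2.75 to 14.4, 14.3 and 15.9 CPM, a difference of −1.46 ± 0.30 from sgAAVS1. ZFP36L2 fell with sgAAVS1 and read 19.99, 17.4 and 18.4 CPM with DMSO and 9.63, 14.1 and 9.32 CPM with CHX with sgERH, a log2 change of −0.75 that was not called and a difference of 1.96 ± 0.29 (edgeR adjusted p = 0.00021). The count was 4 without replicate 1 of the sgAAVS1 DMSO nuclei and 5 without replicate 1 of the sgERH CHX nuclei.

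In the cytoplasm EGR2, KLF10 and CCN2 were the members with the largest CHX effects with either guide. In the sgERH cytoplasm EGR2 went from 2.37, 2.21 and 1.84 to 38.1, 36.8 and 42.2 CPM (log2 change 4.19), KLF10 from 110, 112 and 107 to 1736, 1601 and 1769 CPM (3.96), and CCN2 from 10.2, 10.2 and 12 to 124, 121 and 134 CPM (3.55). In the sgERH nucleus the log2 changes of EGR2 and KLF10 were 3.67 and 3.19, and CCN2 went from 9.97, 11.1 and 13.6 to 83.0, 112 and 108 CPM. No CHX library of these genes overlapped its DMSO group. The nuclear call of NR4A1 with sgERH, at a log2 change of 1.01, was lost without replicate 3 of the DMSO nuclei (0.98), without replicate 1 (0.94) or 3 (0.97) of the CHX nuclei, and with the length offset (0.96). ZFP36L2 was the member called lower in the sgERH cytoplasm, from 46.1, 46.4 and 53.9 to 22.5, 25.1 and 21.3 CPM, a log2 change of −1.09. Without replicate 3 of the sgERH DMSO cytoplasm this change was −0.99 and no longer called, and that of ZFP36 went from 1.08 to 0.99 and lost its call as well.

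Without CHX, the members called between sgERH and sgAAVS1 cells were all higher with sgERH. Of all genes called, 81.1% in the cytoplasm and 73.4% in the nucleus were higher too. This comparison shares its sgAAVS1 DMSO libraries with the CHX comparison, and the values are given side by side only. In the cytoplasm 5 members were called higher and none lower (11.5% of genes in either direction, 9.30% higher and 2.16% lower), with a median of 0.20 against 0.04. This is 12.8% of the members tested, near the share of all genes. At an adjusted p of at most 0.05 (edgeR), whatever the fold change, 19 members were higher and 8 lower. The 5 called members were NR4A2 at a log2 difference of 2.09, NR4A3 at 1.93, SPRY2 at 1.47, KLF6 at 1.25 and JUND at 1.15. SPRY2 read 37.1, 33.5 and 30.9 CPM with sgAAVS1 and 90.9, 93.0 and 97.8 CPM with sgERH, with no overlap.

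In the DMSO nucleus 6 were called higher (6.5% of genes in either direction, 4.77% higher), with a median of 0.24 against 0.03. NR4A3 came first at 1.89, followed by JUND at 1.70, FOSL2 at 1.36, NR4A2 at 1.30, SPRY2 at 1.22 and BTG1 at 1.11. JUND read 3.17, 3.21 and 3.11 CPM with sgAAVS1 and 13.2, 10.3 and 7.46 CPM with sgERH. FOSL2 read 6.00, 6.45 and 4.84 CPM and 15.9, 15.2 and 13.3 CPM. For both genes every sgERH library was above every sgAAVS1 library.

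With CHX present, no member was called between guides in the cytoplasm (7.22% of genes in either direction, 5.79% higher and 1.43% lower; edgeR called 0, DESeq2 called 0, and 31 members had an unadjusted p under 0.05). Of the 30 members with an adjusted p of at most 0.05, 13 were higher and 17 lower with sgERH, all within 2-fold, and the median was −0.04. The count was 1 without replicate 3 of the sgAAVS1 CHX cytoplasm. In the nucleus 3 were called higher with sgERH (8.96% of genes in either direction, 5.29% higher), and 5 were called without replicate 2 of the sgAAVS1 CHX nuclei or without replicate 1 or 3 of the sgERH CHX nuclei. ZFP36L2 led at 1.96, followed by DUSP4 at 1.72, from 0.863, 1.09 and 0.853 to 3.07, 2.96 and 3.26 CPM, and SPRY2 at 1.08, from 56.8, 62.6 and 56.3 to 122, 122 and 127 CPM, with no overlap in either gene.

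The balance between nucleus and cytoplasm was compared within the sgAAVS1 cells, fraction against fraction, and relative to the other genes. With DMSO 17 members were lower in the nucleus and 1, NR4A1, was higher, where 27.8% of the 17055 genes tested were called lower and 30.4% higher (58.2% in either direction), and the median of the members was −0.90 against −0.01. With CHX 25 were lower and 1, DUSP8, was higher (28.3% and 31.3% of genes, 59.5% in either direction), and the median was −1.48 against 0.03. The members thus lay on the cytoplasmic side in either condition. BTG1 was lowest with DMSO at −2.63 and PHLDA1 lowest with CHX at −3.02, followed by JUND at −2.37 and −2.72. CPM values are scaled within a fraction, so their ratio between fractions is not this log2 difference.

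The log2 CHX effect was lower in the nucleus than in the cytoplasm for 5 members and higher for none (15.4% of genes in either direction, 7.23% higher and 8.17% lower), with a median difference of −0.39 against 0.03. They were KLF6 at −1.51 ± 0.08, KLF10 at −1.44 ± 0.06, SPRY4 at −1.19 ± 0.07, KLF2 at −1.05 ± 0.27 and ZFP36L1 at −1.03 ± 0.06. For KLF6, KLF10 and KLF2 the nuclear rise was the smaller one, while SPRY4 and ZFP36L1 fell in the nucleus and were not called in the cytoplasm (SPRY4 at −1.42 and −0.19, ZFP36L1 at −1.15 and −0.07). KLF6 is an example of the first kind: with DMSO it read 54.3, 53.5 and 47.5 CPM in the nucleus and 46.9, 45.8 and 41.7 CPM in the cytoplasm, and with CHX 205, 211 and 211 CPM against 535, 527 and 526 CPM. KLF10 went from 102, 103 and 95.0 to 528, 536 and 548 CPM in the nucleus, a 5.37-fold rise against 15-fold in the cytoplasm. For ZFP36L1 the nuclear level fell, from 498, 498 and 486 to 229, 225 and 214 CPM, while the cytoplasmic level hardly moved. KLF2 went from 3.48, 1.91 and 1.49 to 11, 9.90 and 10.5 CPM in the nucleus, and its call was lost without nuclear DMSO replicate 1 (−0.61), without cytoplasmic DMSO replicate 3 (−0.93) and with the length offset (−0.58).

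**Figure D4:**
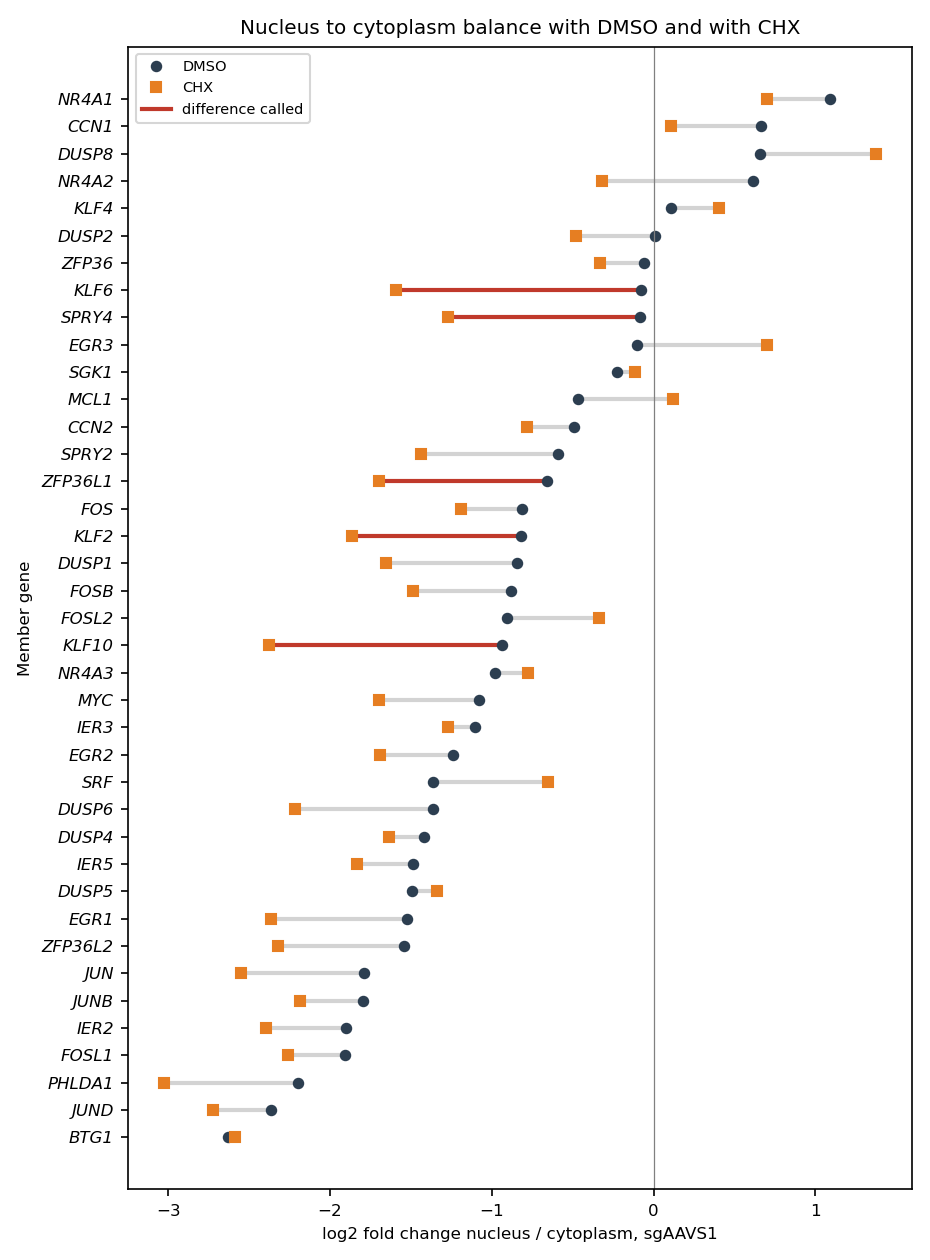
Log2 fold change of nucleus against cytoplasm in sgAAVS1 cells for the 39 tested members, with DMSO (dark circles) and with CHX (orange squares); a red line marks the 5 members whose difference between treatments was called. Members lie mostly left of 0, and KLF6, SPRY4, KLF10, KLF2 and ZFP36L1 moved further left with CHX.

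Reads that cross an exon-intron boundary come from RNA in which that intron is unspliced, whether it is still to be removed or retained. They could be tested for 34 members. Of the members called in them, FOS, FOSB and JUND have boundary reads only at introns that overlap a known exon, so theirs may also come from exons of other transcripts. With CHX in the sgAAVS1 nuclei 14 were higher and 6 lower, where 17% and 15% of the 11994 genes tested were called higher and lower (32.0% in either direction), with a median of 0.89 against 0.06. EGR2 and NR4A3 averaged under 10 boundary reads with DMSO and ZFP36L2 with CHX, so that they passed the count filter through other groups, and 12 higher and 5 lower are left without them. With sgERH 11 were higher and 3 lower (23% of genes in either direction, 11.1% higher and 11.9% lower), with a median of 0.65 against 0.02. There too EGR2 averaged under 10 boundary reads with DMSO, and 10 higher are left without it.

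Of the 34 members, 13 were called higher in both nuclear gene counts and boundary reads with sgAAVS1, against 9.77% of the 11643 genes tested in both. The 13 include EGR2 and NR4A3, which had hardly any reads with DMSO, and FOS, FOSB, EGR3, KLF10 and CCN2, which had more. FOS had 74, 24 and 29 boundary reads with DMSO and 176, 199 and 197 with CHX, a log2 change of 2.31 ± 0.32. KLF10 had 474, 466 and 429 and then 1803, 1489 and 1780, a log2 change of 2.01 ± 0.12. CCN2 had 48, 20 and 27 and then 446, 343 and 400, a log2 change of 3.77. In each of these genes every CHX library was above every DMSO library. NR4A3 had 0, 0 and 1 boundary reads with DMSO and 38, 35 and 32 with CHX, too few at the start for a fold.

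Against these, 3 members had fewer boundary reads with CHX while their nuclear gene counts were not called. The share of members called lower in boundary reads was near that of all genes with sgAAVS1 and below it with sgERH. These members are therefore described singly and not as a feature of the set. EGR1 had 75, 95 and 90 boundary reads with DMSO and 57, 35 and 25 with CHX, a log2 change of −1.04 ± 0.32, at the same time as its cytoplasmic counts rose by 1.54. Its boundary call was lost without replicate 3 of the sgAAVS1 CHX nuclei (−0.80), without replicate 2 of the DMSO nuclei (−0.95) and with total counts in place of TMM scaling (−0.94). PHLDA1 had 725, 637 and 641 and then 190, 286 and 285, a log2 change of −1.27 ± 0.18, with cytoplasmic counts up by 1.25. DUSP2 had 293, 306 and 315 and then 79, 110 and 133, a log2 change of −1.38. With sgERH, EGR1 had 127, 115 and 102 boundary reads with DMSO and 120, 126 and 78 with CHX, groups that overlapped.

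SPRY4, ZFP36L1 and ZFP36L2 were lower in both readouts of the sgAAVS1 nuclei. ZFP36L1 had 3394, 3035 and 2790 boundary reads with DMSO and 1267, 1100 and 1092 with CHX, a log2 change of −1.29 ± 0.10, and SPRY4 1874, 1818 and 1705 and then 553, 622 and 622 (−1.46). ZFP36L2 had 17, 22 and 30 and then 1, 0 and 0. CCN1 was called in boundary reads only (1.01), a call lost at 0.86 without replicate 3 of the sgAAVS1 DMSO nuclei at 0.97 without replicate 2 of the CHX nuclei, and at 0.98 both with DESeq2 and with relative log expression size factors. JUND, with a boundary log2 change of 1.05, lost its call without the same 2 libraries, at 0.83 and 0.89. With sgERH the members lower in boundary reads were SPRY4, DUSP1 and DUSP2. DUSP1, at −1.13, lost its call without replicate 3 of the sgERH CHX nuclei (−0.96). DUSP2, at −1.07, lost its call without replicate 1 of the sgERH DMSO nuclei (−0.95) or replicate 1 (−0.93) or 3 (−0.87) of the CHX nuclei, and with total counts (−0.97), and DUSP8, higher at 1.11, without replicate 2 of the DMSO nuclei (0.99) or replicate 1 of the CHX nuclei (0.94).

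**Figure D5:**
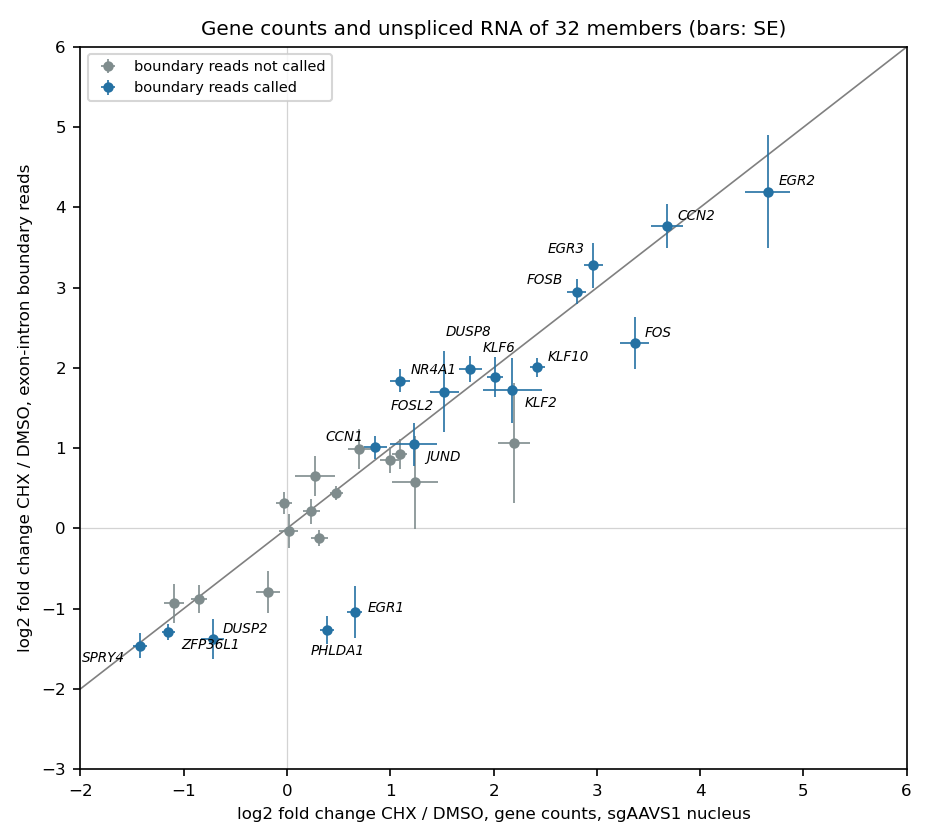
Log2 fold change of CHX against DMSO in the sgAAVS1 nuclei for gene counts (x axis) and for exon-intron boundary reads (y axis) of 32 members, with SE bars; the line marks equal changes and blue marks called boundary reads. NR4A3 and ZFP36L2, with 1 read in a whole group, are not drawn. FOS, EGR3 and CCN2 are high on both axes, EGR2 rests on 8 boundary reads with DMSO, and PHLDA1 and EGR1 lie far below the line.

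Intron retention was measured for 116 introns of 33 members in the nuclei, as the intron retention (IR) ratio, which runs from 0 where every read is spliced to 1 where none is. No intron was called where the group with more retention averaged an IR ratio under 0.05. CHX in sgAAVS1 nuclei raised 4 member introns and lowered 7, where 10.3% of 125590 introns were called in either direction, 5.57% higher and 4.69% lower, so the share of member introns was near the background. SRF, not called in gene counts, had the introns with the clearest opposite moves. An intron near its 5′ end, chr6:43172170-43173846, had IR ratios of 0.149, 0.263 and 0.165 with DMSO and 0.506, 0.479 and 0.629 with CHX. A later one, chr6:43176668-43178293, had 0.293, 0.272 and 0.292 and then 0.145, 0.18 and 0.124. The groups did not overlap in either intron of SRF, and both calls were lost when boundary reads took the place of intron depth (adjusted p = 0.054 and 0.062, edgeR).

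PHLDA1 had the largest fall, at the intron chr12:76030093-76030509, with IR ratios of 0.262, 0.211 and 0.236 with DMSO and 0.0422, 0.0480 and 0.0576 with CHX. NR4A1 had 3 introns called higher, of which chr12:52057531-52058687 had 0.172, 0.212 and 0.176 and then 0.436, 0.479 and 0.472 with no overlap. The other NR4A1 introns share their 3′ end and hence reads, and their calls were lost without replicate 3 of the sgAAVS1 DMSO nuclei.

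Between guides, member introns were called lower only. With DMSO 14 were lower with sgERH and none higher (4.63% of introns in either direction, 1.20% higher and 3.43% lower; median −0.38 in the members and −0.37 over all introns). With CHX 18 were lower (20.4% and 19.7%; −0.72 and −0.94). The medians of member introns and of all introns were thus on the same side. Over all introns, 4303 of 5816 calls with DMSO and 24718 of 25655 with CHX were lower. The fit has no term for the lower share of boundary reads in all sgERH nuclei, so the calls include it, and its part was not tested. The paper, with IRFinder and DESeq2, reports a set of introns retained more after ERH loss, in the nucleus or the cytoplasm. Here 1513 introns were called higher with sgERH in the DMSO nuclei, and their overlap with the paper's set was not tested. The DMSO count was 9 without replicate 1 of the sgAAVS1 DMSO nuclei. FOSL1 gave 6 of the 14 calls with DMSO, in introns that overlap one another: chr11:65893297-65896808 had IR ratios of 0.598, 0.591 and 0.586 with sgAAVS1 and 0.421, 0.414 and 0.407 with sgERH. SPRY4 gave 5 of the 18 calls with CHX, where the overlapping intron chr5:142319795-142324843 had 0.652, 0.468 and 0.544 with sgAAVS1 and 0.238, 0.167 and 0.213 with sgERH. In both introns every sgERH library was below every sgAAVS1 library.

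Genes around the members were read from 3 lists, where 19.9% of all genes were called in the sgAAVS1 cytoplasm, 13.6% higher and 6.31% lower. Of 26 kinases and transcription factors upstream of immediate early genes, CHX raised CREB1 (log2 change 1.02) and MRTFA (1.08) and lowered the kinase RPS6KA3 (−1.02) in the sgAAVS1 cytoplasm, with a median of −0.26, so that the share called was below that of all genes. Of 40 further immediate early or rapidly induced genes, 15 were higher and 2 lower, with a median of 0.60. ATF3, a stress-induced factor of the ATF family, went from 3.08, 2.29 and 2.65 to 81.6, 82.1 and 84.4 CPM (log2 change 4.95) and GADD45B, a paralog of GADD45A, from 9.82, 10.0 and 9.31 to 120, 132 and 122 CPM (3.68). SPRY1, a Sprouty inhibitor, fell from 4.08, 4.69 and 4.53 to 1.31, 1.30 and 0.713 CPM (−2.01) and TRIB1, a pseudokinase, from 184, 187 and 159 to 78.4, 82.2 and 79.4 CPM (−1.14). In none of these 4 did the groups overlap. Of 31 genes for deadenylation, decapping and AU-rich element binding, CNOT4 (1.27), PAN2 and ZFP36 were higher and ZFP36L2 lower, again a share below that of all genes, with a median of −0.10. ZFP36 and ZFP36L2 are members too.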

How the data were processed

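RNA-seq libraries were processed by the authors with nf-core/rnaseq (fastp 0.23.4, STAR and salmon, GRCh38, Ensembl release 110), and the deposited tables hold expected counts per transcript (estimated counts, not whole), transcript lengths and TPM. Introns were quantified by the authors with IRFinder-S, and the deposited tables give the intron depth (a coverage signal), counts of spliced and of boundary reads, and the IR ratio, a fraction. Here expected counts were summed per gene, rounded and tested with edgeR 4.0.16 (quasi-likelihood, TMM, R 4.3.3) within each fraction of 12 libraries, all groups in 1 fit, after a minimum count of 10 (filterByExpr). The fractions of the sgAAVS1 cells were compared in a further fit of 12 libraries. CPM are TMM-scaled within a fraction. Boundary reads were summed per gene. Intron depth against spliced reads was tested in the nuclei for introns with mean depth plus spliced reads of at least 10, mean depth of at least 1 in the highest group, and none was called where the group with more retention averaged an IR ratio under 0.05. Called means adjusted p of at most 0.05 (Benjamini-Hochberg over all features) and absolute log2 fold change of at least 1. Steps were tested on simulated data. Members, lists and tests were chosen with earlier results of these data known. All 40 members could be named, with library values for those with the largest called changes and for FOS, JUN, EGR1, MYC, IER3, ZFP36, DUSP1 and MCL1. Every pair of libraries of a group differed beyond sampling noise. Replicate 2 of the sgERH CHX nuclei stood furthest apart, with a chi-square per gene of 61.2 and 50.0 against replicates 1 and 3. Those had 20.7 between them, and no pair in another group exceeded 31.7. Exons of JUNB, EGR2, EGR3, KLF4, NR4A1, MYC, IER2, IER3, DUSP6, ZFP36L1, ZFP36L2, BTG1, CCN2, PHLDA1 and MCL1 overlap other annotated genes, and strand use in the counting is not given in the sources used here, so reads of overlapping genes cannot be told apart. Alternatives are given in the closing section.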

Additional observations from a re-analysis of the deposited data

Results flagged for a closer look

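For 14 results the CHX effect of a member differed between groups by the test of the difference itself. Between guides in the cytoplasm 17.9% of the members tested were called, against 3.63% of all genes. Between guides in the nucleus it was 5.13% against 3.62%, and between fractions 12.8% against 15.4%, both near the share of all genes. Between guides in the cytoplasm (sgERH minus sgAAVS1, log2 scale, 3 libraries per group, edgeR) these were NR4A3 at −1.66, JUND at −1.56, NR4A2 at −1.45, KLF6 at −1.30, FOS at −1.30, FOSB at −1.17 and BTG1 at −1.06. Between guides in the nucleus they were NR4A3 at −1.46 and ZFP36L2 at 1.96. Between fractions in sgAAVS1 cells (nucleus minus cytoplasm) they were KLF6 at −1.51, KLF10 at −1.44, SPRY4 at −1.19, KLF2 at −1.05 and ZFP36L1 at −1.03. NR4A3 had a smaller CHX effect with sgERH in both fractions, and KLF6 was the member that differed both between guides and between fractions. The ERH transcript, the target of the guide, stood at the levels given in the report, and its part in these differences was not tested.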

How the results depend on the processing

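Over the 13 gene comparisons there were 151 calls of members, where a member counts once in each comparison that called it. Of these calls, 139 were kept under every alternative run (DESeq2, relative log expression size factors, total counts, no filter, a transcript length offset, the replicate block and each library left out). None of 228 named results reversed in 2686 alternatives. With total counts in place of TMM, called members numbered 8 in place of 5 for sgERH against sgAAVS1 in the DMSO cytoplasm, 1 in place of 0 in the CHX cytoplasm, 7 in place of 3 in the CHX nucleus, and 12 in place of 5 for the CHX effect between fractions. The length offset gave 1 in the CHX cytoplasm and 5 in the CHX nucleus between guides, and 5 in place of 2 for the CHX effect between guides in the nucleus. Leaving out 1 library gave 0 to 1 in the CHX cytoplasm and 3 to 5 in the CHX nucleus between guides, 2 to 5 for the CHX effect between guides in the nucleus, and 4 to 7 between fractions. Boundary reads in place of intron depth gave 7 in place of 11 member introns for CHX and 8 in place of 14 for sgERH with DMSO, and leaving out 1 library gave 10 to 14 and 9 to 15. Restricting boundary reads to clean introns, chosen after seeing the data, gave 18 in place of 20 members with sgAAVS1 and 13 in place of 14 with sgERH, with no test of FOS, FOSB or JUND. Same-numbered libraries were at most weakly alike (same-number correlations of deviations −0.0900 to 0.158, over 0.1 throughout in 0 of 18 group pairs). In some group pairs each library correlated best with its own number, among them the sgAAVS1 DMSO fractions (0.0319, 0.0351 and 0.0853), and in others not. Weak pairing is thus possible, and the main fits have no term for it. The replicate block lost 0 of the gene calls (25 in place of 24 for CHX in the sgAAVS1 cytoplasm) and 1 intron call, of SGK1 between guides with CHX (adjusted p = 0.060, edgeR). Total counts moved the median of all genes by 0.19 (CHX, sgAAVS1 cytoplasm), 0.12 (CHX, sgERH cytoplasm), 0.23 (guides, CHX nucleus) and 0.34 (fractions, DMSO) on the log2 scale, and the share of higher genes among all calls from 68.3% to 80.0%, 79.2% to 88.4%, 59.0% to 83.7% and 52.3% to 63.4% in these comparisons. The members' medians were then 1.44, 1.00, 0.48 and −0.54. Other shifts over 0.1 were 0.17 and 0.10 (guides, DMSO and CHX cytoplasm), 0.11 (CHX, sgERH nucleus), 0.13 (guides, DMSO nucleus), 0.14 (fractions, CHX) and −0.22 (CHX effect between fractions), and the share of higher genes went from 81.1% to 91.5% (guides, DMSO cytoplasm), 57.5% to 67.5% (CHX, sgERH nucleus), 73.4% to 85.2% (guides, DMSO nucleus), 35.6% to 50.2% (CHX effect between guides, nucleus) and 47.0% to 27.5% (CHX effect between fractions). Relative log expression size factors moved the median between fractions by 0.19 with DMSO and 0.18 with CHX. No cause of these shifts was tested. Low-level members such as EGR2, NR4A2, NR4A3, KLF2 and DUSP4 have the least depth.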
